A study of Mus musculus with 100 samples.

Results

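The 10 genes described here are Hif1a, which encodes the oxygen-labile subunit of hypoxia-inducible factor 1, the glucose transporter gene Slc2a1, and the glycolytic genes Hk1, Hk2, Hk3, Pfkfb3, Pfkp, Aldoa, Pkm and Ldha. They were chosen by name among the 18524 genes named in 15 tables of ChIP-seq regions, and every region whose nearest annotated start site belonged to a member was kept. This gave 1066 of 610301 regions summed over the tables, from 37 for Aldoa to 209 for Hif1a. The regions lay between 274 kb upstream and 60.3 kb downstream of the start sites, the farthest ones belonging to Pfkp and Hk2. The assignment was by distance alone, and no link between a region and a gene was measured. Of the Hif1a regions, 45 lay in introns of the neighbouring gene Prkch, and of the Hk3 regions 17 lay in Uimc1 and 10 in Unc5a.

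Glycolysis converts glucose to pyruvate through hexokinases (Hk1, Hk2 and the myeloid-enriched Hk3), phosphofructokinase (Pfkp is its platelet isoform), aldolase (Aldoa) and pyruvate kinase (Pkm), and lactate dehydrogenase A (Ldha) then reduces pyruvate to lactate. Pfkfb3 makes fructose 2,6-bisphosphate, an allosteric activator of phosphofructokinase. HIF-1 binds the core sequences ACGTG and GCGTG and activates many of these genes, and macrophages that receive a Toll-like receptor 4 (TLR4) signal are known to raise glycolysis and to transcribe Hif1a through NF-kB. NCoR is a corepressor that carries the histone deacetylase HDAC3. The p65 protein is an NF-kB subunit, Fosl2 an AP-1 protein, PU.1 the factor that selects myeloid enhancers, PGC1b a coactivator, ERK1 a mitogen-activated kinase and p300 an acetyltransferase. H3K27ac, acetylated lysine 27 of histone H3, marks active promoters and enhancers.

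Bone marrow-derived macrophages (BMDMs), grown from young adult C57BL/6 mice, received vehicle (Veh) or Kdo2-Lipid A (KLA), a TLR4 agonist, for 6 h, and 8 proteins were mapped in wild-type cells. The ERK inhibitor LY3214996 (ERKi) was combined with KLA in the NCoR and PGC1b experiments. The HDAC3 inhibitor RGFP966 was combined with KLA in 1 H3K27ac experiment. By the authors' methods the macrophages were serum-starved before KLA, and the inhibitors were added when starvation began. DMSO was the solvent control for PGC1b and H3K27ac. H3K27ac was also mapped in NCoR flox/flox macrophages (labelled WT) and in NCoR flox/flox, LysMCre macrophages (labelled NKO), with Veh or KLA, and in PGC1b flox/flox macrophages with or without LysMCre, with Veh or KLA. LysMCre acts in myeloid cells. Deletion in a culture can be incomplete, and its extent in these libraries was not measured here. The paper compared PGC1b protein in macrophages of both PGC1b genotypes by immunoblot. ERK1 and p300 were also mapped in wild-type bone marrow cells at day 0 and at day 4 of osteoclast culture with M-CSF and RANKL. Every group held 2 libraries, which the submitters describe as biological replicates.

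The 70 libraries with values held 4.30 to 21.5 M tags, a tag being an aligned read position and M standing for mega. Levels are tags per region for every 10 M tags of the library (tags per 10 M). They depend on the antibody and on the width of a region, and are compared here only within a region. In the 12 factor tables regions were the peaks of the conditions compared, so that a region had to be a peak in at least 1 of them. The RGFP966 and PGC1b H3K27ac tables each held 29767 regions of 1000 bp. The paper describes such windows as placed at open-chromatin (ATAC-seq) peaks with Veh. A region there need not be an H3K27ac peak, and a site open only with KLA could be absent. The chromatin came from bulk cultures, in which a change in all cells and a change in a part of the cells cannot be told apart. The share of all tags that fell in the regions of a table moved with some conditions. It was 12.7 and 14.4% in the p65 Veh libraries against 34.1 and 37.1% with KLA, 23.74 and 21.99% against 35.53 and 35.32% for p300, and 33.3 and 34.2% in the NCoR KLA libraries against 14.97 and 15.79% with ERKi, and its part in the results below was not tested. Libraries of 1 group could also differ, with 31.18 and 46.53% for HDAC3 with KLA (17.06 and 5.694 M tags) and 16.41 and 32.31% for Fosl2 with KLA. Promoter regions of all 8 macrophage marker genes were present in the RGFP966 and PGC1b H3K27ac tables, and of 5 of 8 in the NKO table, against 1, 1 and 0 of 10 markers of other cells. The ERK1 and p300 tables of osteoclast culture hold peaks of day 0 and day 4 together. In each, 2 of 5 osteoclast and 7 of 8 macrophage markers had a promoter region. Of 10 markers of other cells, 0 had one for ERK1 and 1 for p300. Among the libraries, day 4 ERK1 replicate 2 carries another replicate number and date in its description. It also lacks the tag NCoRWT, which day 4 replicate 1 and both day 0 ERK1 libraries carry. All of them are titled WT, and whether the tag marks another genotype is not stated. The NCoR ERKi libraries carry another date than the other NCoR libraries.

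The sequences under 4 p65 regions that rose with KLA, and of 4 promoters, are given here because the values of several factors at these places are described below. In 200-bp windows around p65 region centres (mm10, forward strand), capitals mark an NF-kB motif (GGGNNTTCC, or the same letters with 1 more N) or an AP-1 motif (TGANTCA), searched on both strands. The windows are 4.6 kb upstream of the upstream Hif1a start site, 22010 bp and 22831 bp upstream of the main Pfkfb3 start site, and 17.4 kb into Slc2a1.
Hif1a, chr12:73896602-73896801: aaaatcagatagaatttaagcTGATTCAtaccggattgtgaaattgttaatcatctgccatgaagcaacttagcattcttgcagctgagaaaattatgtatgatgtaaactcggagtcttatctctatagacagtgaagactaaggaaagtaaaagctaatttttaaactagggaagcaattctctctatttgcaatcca
Pfkfb3, chr2:11524001-11524200: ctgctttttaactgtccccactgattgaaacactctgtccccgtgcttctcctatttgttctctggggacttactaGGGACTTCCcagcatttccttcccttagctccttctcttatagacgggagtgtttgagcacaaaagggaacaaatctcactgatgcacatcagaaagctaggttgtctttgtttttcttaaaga
Pfkfb3, chr2:11524822-11525021: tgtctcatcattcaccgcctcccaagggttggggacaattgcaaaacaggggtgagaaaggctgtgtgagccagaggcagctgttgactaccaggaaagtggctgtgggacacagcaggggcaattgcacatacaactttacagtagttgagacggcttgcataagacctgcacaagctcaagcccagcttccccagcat
Slc2a1, chr4:119126000-119126199: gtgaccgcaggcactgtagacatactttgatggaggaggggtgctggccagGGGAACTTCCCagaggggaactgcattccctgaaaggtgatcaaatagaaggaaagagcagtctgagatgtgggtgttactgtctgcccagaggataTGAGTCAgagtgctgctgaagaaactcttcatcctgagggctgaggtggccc
The Hif1a window held an AP-1 motif. The Pfkfb3 window 22010 bp upstream held an NF-kB motif, and these letters were not found in the window 22.8 kb upstream. In Slc2a1 the marked stretch held overlapping NF-kB motifs on opposite strands, and the window also held an AP-1 motif. Over all p65 regions of the 10 genes, 34 of 89 windows held an AP-1 motif (38.2%, against 21.7% of all p65 windows). The NF-kB motifs were found in 5 of 89 windows each (5.62%, against 7.64 and 8.14%).

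RefSeq promoters of GRCm38.p6, from 250 bases before to 50 after a start site, were matched for 16 start sites of the 10 genes. Capitals mark ACGTG or GCGTG on either strand, the core of the HIF response element. The promoters of Hif1a (its downstream start site), Slc2a1, Hk2 and Ldha are shown because they cover the regulator, the transporter, the first enzyme and the last enzyme, those of Hif1a, Slc2a1 and Ldha on the forward strand and that of Hk2 on the reverse strand.
Hif1a, chr12:73907617-73907916: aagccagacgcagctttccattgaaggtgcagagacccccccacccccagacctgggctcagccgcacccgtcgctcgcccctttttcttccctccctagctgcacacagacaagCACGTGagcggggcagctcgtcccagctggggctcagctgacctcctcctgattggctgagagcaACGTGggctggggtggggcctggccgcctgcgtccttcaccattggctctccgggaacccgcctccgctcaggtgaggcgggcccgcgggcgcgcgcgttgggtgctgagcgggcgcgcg
Slc2a1, chr4:119108495-119108794: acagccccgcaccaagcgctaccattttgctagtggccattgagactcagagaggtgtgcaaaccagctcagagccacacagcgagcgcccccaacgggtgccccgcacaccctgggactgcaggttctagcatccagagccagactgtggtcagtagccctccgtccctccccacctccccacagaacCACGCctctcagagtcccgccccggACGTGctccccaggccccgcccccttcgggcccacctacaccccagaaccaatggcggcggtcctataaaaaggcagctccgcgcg
Hk2, chr6:82774405-82774704: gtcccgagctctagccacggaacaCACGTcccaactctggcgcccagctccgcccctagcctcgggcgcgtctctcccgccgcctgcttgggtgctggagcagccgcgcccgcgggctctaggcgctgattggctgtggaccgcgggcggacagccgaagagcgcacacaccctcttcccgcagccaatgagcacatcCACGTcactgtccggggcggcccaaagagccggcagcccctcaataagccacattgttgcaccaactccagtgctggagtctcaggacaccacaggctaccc
Ldha, chr7:46845554-46845853: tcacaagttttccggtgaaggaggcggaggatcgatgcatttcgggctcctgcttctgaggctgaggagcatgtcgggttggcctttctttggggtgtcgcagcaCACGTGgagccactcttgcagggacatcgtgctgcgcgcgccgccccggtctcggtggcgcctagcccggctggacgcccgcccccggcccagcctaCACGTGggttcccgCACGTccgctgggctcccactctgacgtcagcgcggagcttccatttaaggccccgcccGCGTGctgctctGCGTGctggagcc
The Ldha promoter held 7 matches and the Hif1a promoter 3, a palindromic CACGTG counting on each strand. ACGTG was found in 11 of the 16 promoters (68.8%), against 19.6% of 32851 RefSeq promoters. GCGTG was found in 6 (37.5%, against 32.4%), the AP-1 motif in 1 (6.25%, against 7.81%), and the NF-kB motifs in 0 (against 5.82 and 5.56%). The promoters are not all independent, because some genes had more than 1 and overlapping promoters of Aldoa shared the same ACGTG match. Base composition was not matched in these shares, and HIF-1 itself was not mapped.

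The first question was where the 8 proteins moved at these loci after KLA. A region was called changed where edgeR's quasi-likelihood test gave a Benjamini-Hochberg adjusted p under 0.05 over all regions of its table and the fold exceeded 2. All member regions of the factor tables passed the filter on low counts. NCoR rose at 30 and fell at 9 of 100 regions, 39 in all. Over all NCoR regions 40.1% were called, 23.4% higher and 16.7% lower. HDAC3 rose at 35 and fell at 7 of 94 regions, 42 in all, against 38.8% called over all HDAC3 regions, 27.5% higher and 11.3% lower. The gains were uneven among the genes, of which Hif1a held 24, Pfkfb3 13, Pkm 9 and Hk2 14 of the 100 NCoR regions. Hif1a held 15 of the 30 NCoR gains and Pfkfb3 6, while Pkm held 4 of the 9 losses and Hk2 3, and these 4 counts were 16, 6, 4 and 3 with TMM (trimmed mean of M values) scaling. The NCoR count was 22 without KLA replicate 1 and 21 without KLA replicate 2, and the HDAC3 count 19 without Veh replicate 1 and 16 without Veh replicate 2.

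For p65, 64 of 89 regions were called, 61 higher and 3 lower, against 62.4, 57.0 and 5.43% of all p65 regions. The median log2 fold change was 1.88 over the members and 1.46 over all p65 regions. TMM scaling, which centres the bulk of the regions, brought the latter to 0.24 and the member calls to 30 higher and 12 lower. Without KLA replicate 1 or 2 the main count was 36 or 34. The acetyltransferase p300 rose at 78 and fell at 5 of 136 regions, 83 in all, against 54.9% of all p300 regions, 42.1% higher and 12.9% lower. Its median was 1.38 over the members and 0.65 over all regions, the latter 0.14 with TMM scaling.

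The other factors changed at fewer regions. Fosl2 was called at 10 of 57 regions, 9 higher and 1 lower, against 15.6, 11.4 and 4.19% of all Fosl2 regions. That count was 20 with TMM scaling and 19 with DESeq2, 0 without either Veh library, and 26 and 18 without KLA replicate 1 and 2. PU.1 rose at 5 and fell at 12 of 72 regions, 17 in all, against 26.3% of all PU.1 regions, 4.53% higher and 21.7% lower. With TMM scaling, which moved the median over all PU.1 regions from −0.41 to 0.00, the split was 8 higher and 4 lower. PGC1b was called at 17 of 71 regions, 15 higher and 2 lower, against 22.8, 16.4 and 6.35%, and this count was 6, 8 and 28 without Veh replicate 1, Veh replicate 2 and KLA replicate 2. In the separate DMSO experiment PGC1b was called at 28 of 92 regions, 26 higher and 2 lower, against 17.6, 16.4 and 1.23%. That count was 18 with TMM scaling, 13 without DMSO_Veh replicate 1 and 17 without DMSO_KLA replicate 1. ERK1 rose at 6 of 47 regions and fell at none, against 12.9% called and 10.3% higher over all ERK1 regions. The ERK1 count was 3 with TMM scaling and 0 without either KLA library.

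**Figure D1:**
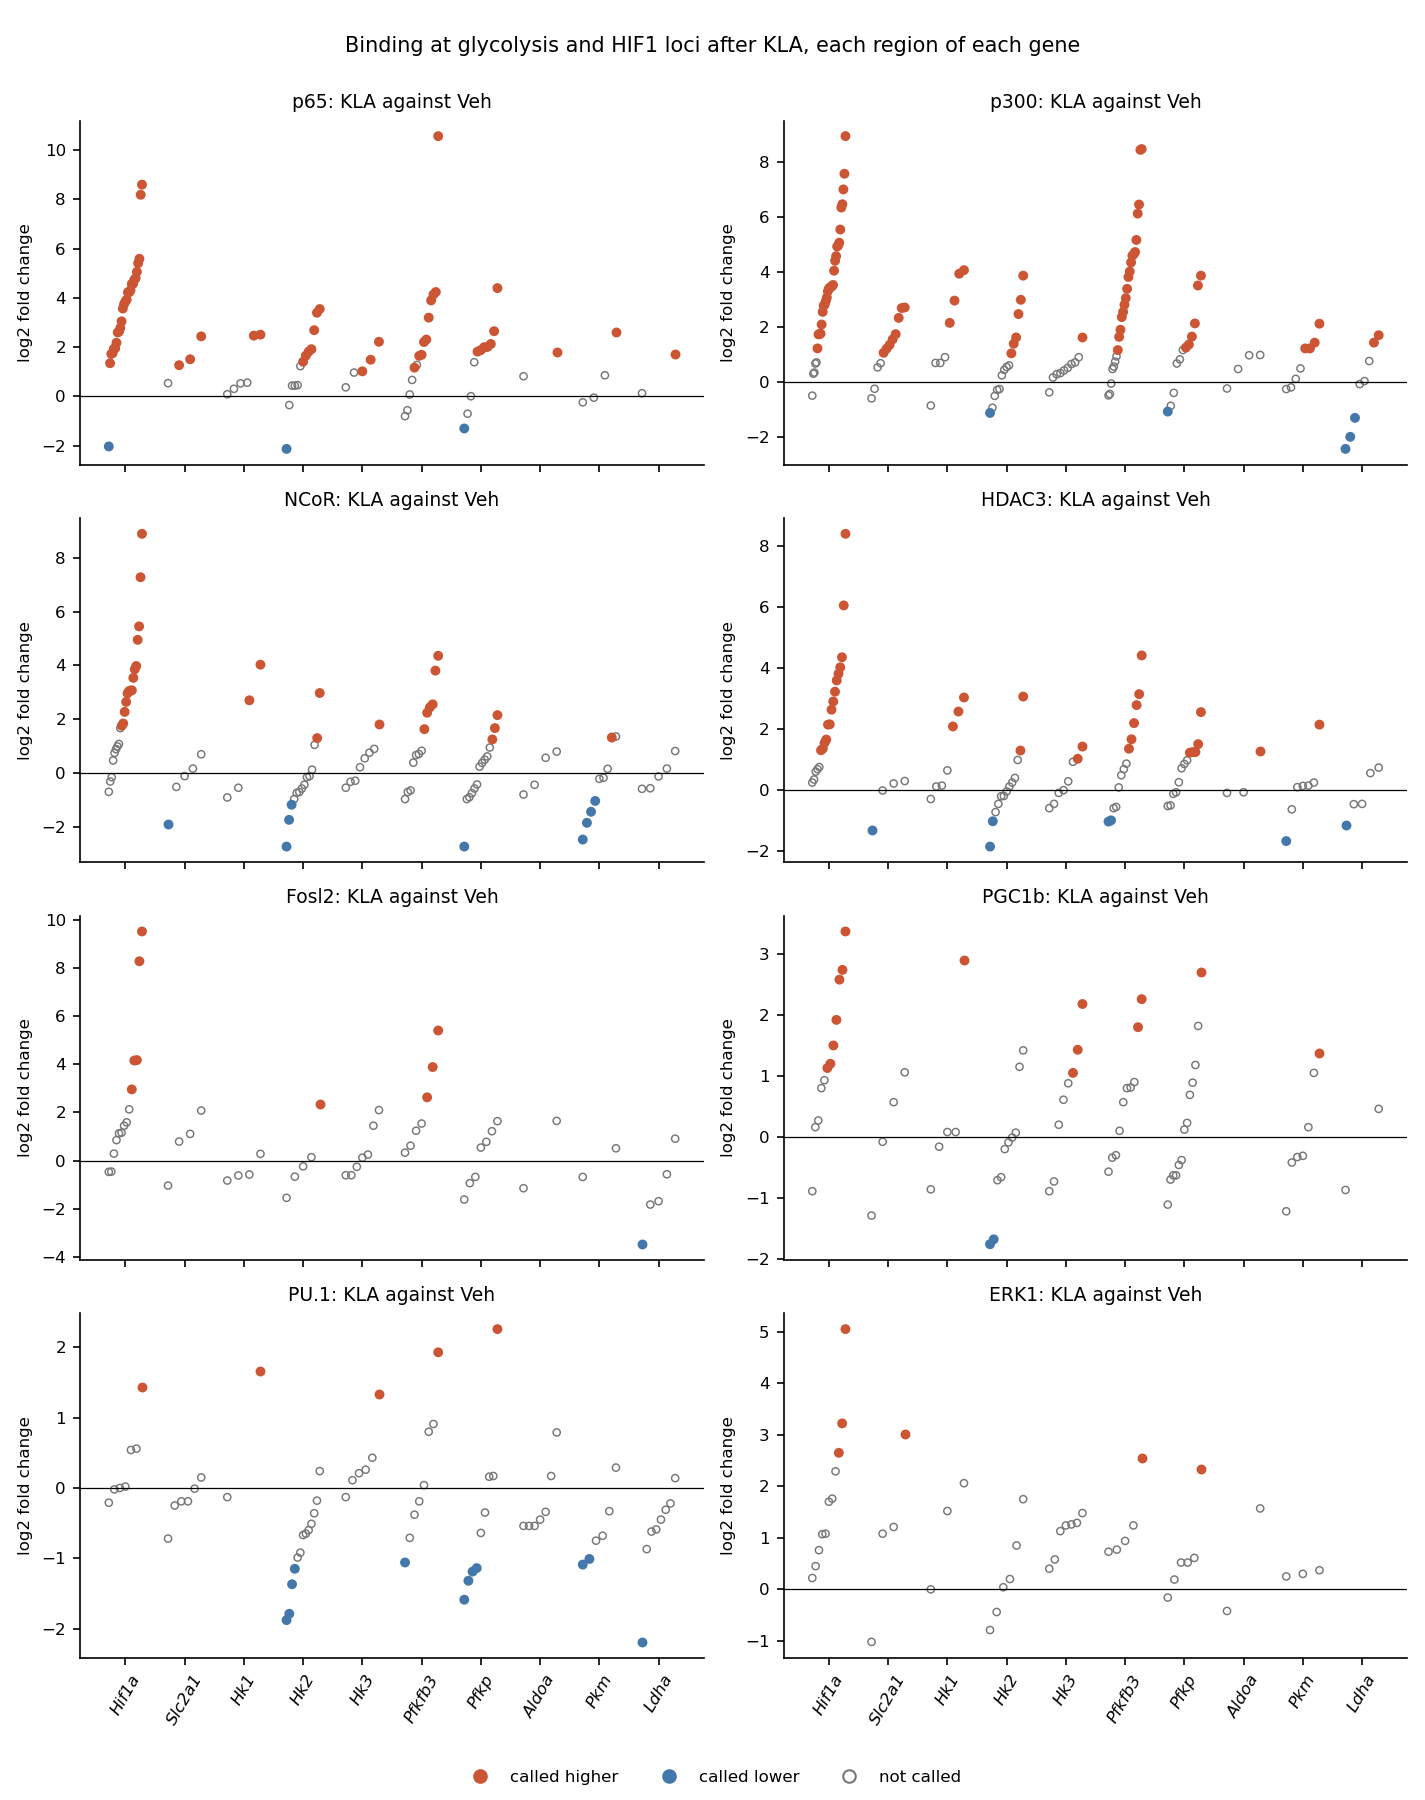
Log2 fold change of KLA against Veh (vertical axis) at every region of the 10 genes (horizontal axis), in a panel for each of the 8 factors. Red points were called higher, blue points called lower and open points not called, the vertical scale differs between panels, and fitted values of regions with almost no Veh tags are no measured folds. The 15 NCoR gains of Hif1a stand beside Pkm, where 4 of 9 regions were called lower.

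Hif1a had the most regions and the most changed regions of the 10 genes in the NCoR, HDAC3, p65 and p300 tables. Over all regions of these factors 23.4, 27.5, 57.0 and 42.1% were called higher. Counts by gene, here and below, are to be read beside the shares over all regions, and no gene was tested against them. NCoR rose at 15 and fell at none of 24 regions, HDAC3 rose at 15 of 20, p65 rose at 26 and fell at 1 of 27, and p300 rose at 28 of 33. With TMM scaling these counts were 16, 15, 19 with 1 lower, and 27. The intergenic region 4.6 kb upstream of the upstream start site, whose sequence is shown above, was low in every Veh library and high in every KLA library of these factors. NCoR measured 25.1 and 9.42 tags per 10 M with Veh and 248 and 254 with KLA, a log2 fold change of 3.86 ± 0.33 (SE; adjusted p = 4.87e-05). For p65 the libraries held 5.25 and 4.66 tags per 10 M with Veh and 158 and 179 with KLA (5.06 ± 0.36, adjusted p = 1.66e-06). The groups did not overlap for either factor, as is likely at called regions with 2 libraries per group. PGC1b followed at this region with 4.11 and 6.04 against 66.6 and 42.9 tags per 10 M (3.37 ± 0.47, adjusted p = 6.53e-05). In the DMSO experiment PGC1b measured 6.50 and 13.1 against 182 and 113 (3.97 ± 0.51, adjusted p = 5.85e-06). These 4 calls held without any 1 library and with TMM scaling.

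The region of Hif1a with the most tags, 122 kb upstream, behaved otherwise. NCoR held 232 and 281 tags per 10 M there with Veh and 245 and 219 with KLA, groups that overlap (log2 fold change −0.14 ± 0.19, adjusted p = 0.551). HDAC3 held 234 and 244 against 222 and 342 and was not called (0.23 ± 0.38, adjusted p = 0.671). By contrast p65 held 66.5 and 91.4 tags per 10 M with Veh and 360 and 357 with KLA (2.18 ± 0.22, adjusted p = 1.28e-05), a call lost with TMM scaling (0.97). The region was likewise high before KLA and higher after it for p300, at 144 and 120 against 426 and 459 (1.74 ± 0.15, adjusted p = 4.99e-08).

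**Figure D2:**
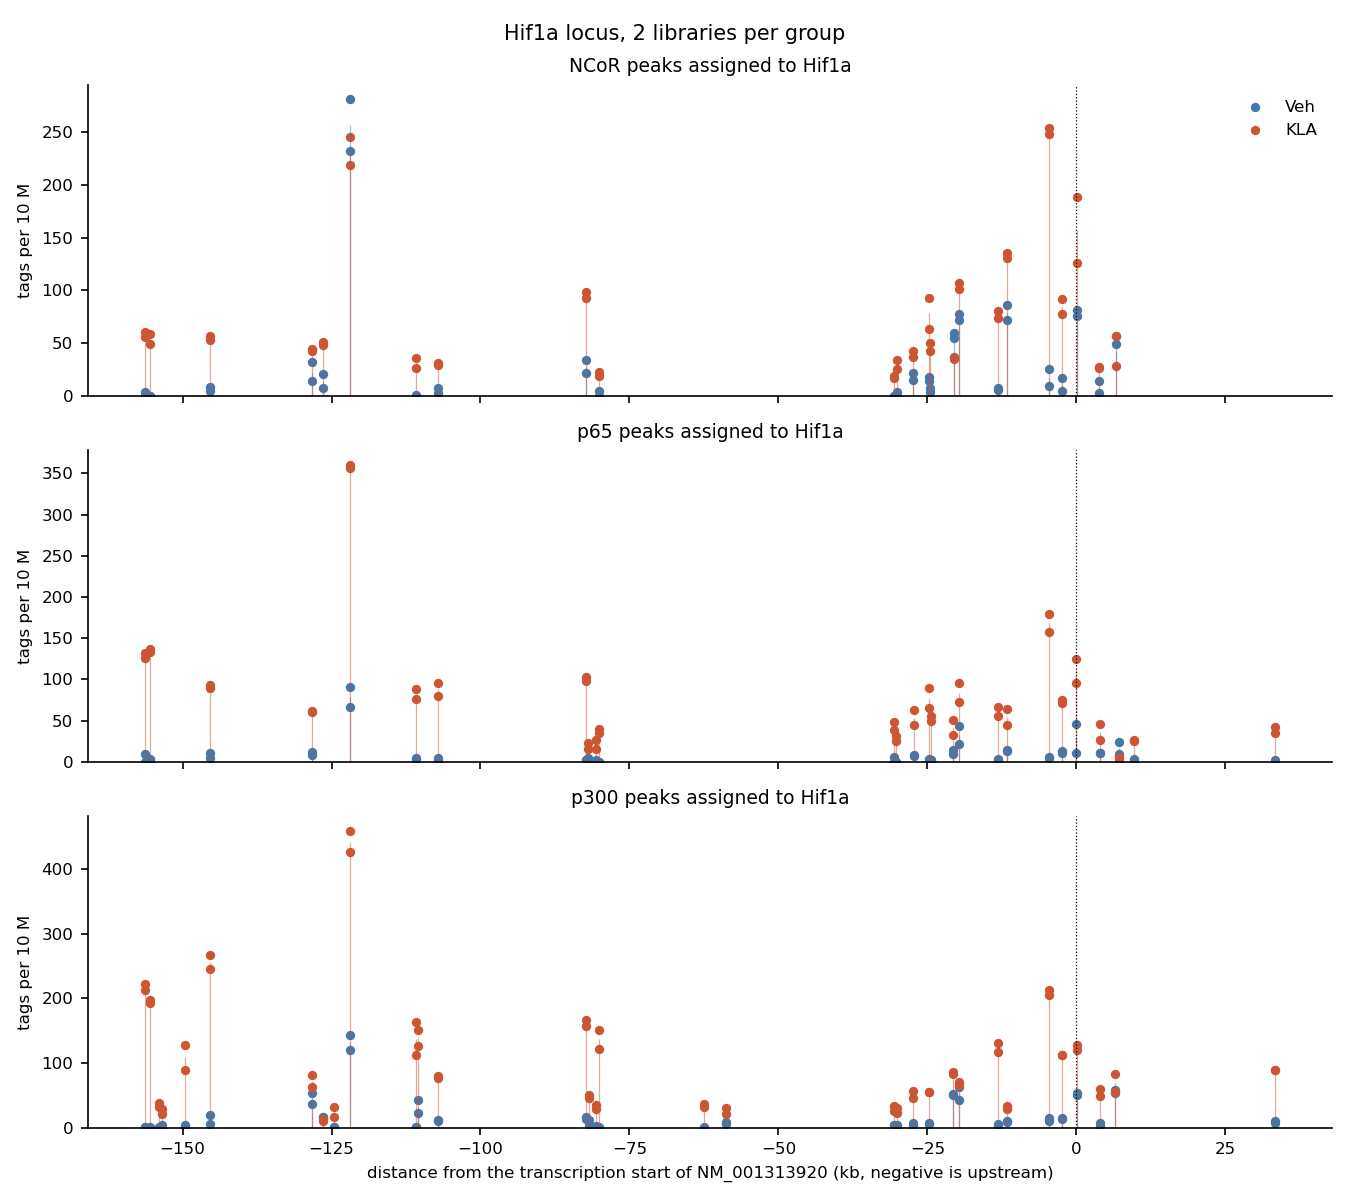
NCoR, p65 and p300 tags per 10 M at the regions assigned to Hif1a, against distance in kb from the upstream start site. Veh libraries are blue and KLA libraries red, with both libraries as points and a line to their mean. Peaks 4.6 kb upstream appear with KLA, whereas the NCoR peak 122 kb upstream has libraries of both groups between 219 and 281.

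Farther regions of Hif1a, 155 and 156 kb upstream, lay in Prkch, a kinase gene. At 156 kb upstream p300 measured 1.88 and 1.31 tags per 10 M with Veh and 223 and 213 with KLA (7.02 ± 0.32, adjusted p = 1.25e-10). At 155 kb upstream Fosl2 had 0 tags in both Veh libraries and 83.8 and 165 tags per 10 M with KLA, at least 76.3-fold higher over a floor of 3 tags in the group, and the Fosl2 call was lost without either Veh library. Nearer to Hif1a, in an intergenic stretch 24.8 kb upstream, HDAC3 rose from 7.27 and 7.74 to 80.3 and 172 tags per 10 M (4.01 ± 0.47, adjusted p = 7.95e-16).

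At the upstream Hif1a promoter itself the changes were smaller. HDAC3 rose from 71.3 and 70.8 to 158 and 193 tags per 10 M (1.29 ± 0.36, adjusted p = 0.00153), a call lost without either Veh library (1.30 and 1.29). NCoR measured 81.3 and 75.3 against 188 and 126 and did not pass the fold limit (1.00 ± 0.26, adjusted p = 0.0099). The p300 level rose from 53.9 and 51.3 to 120 and 128 (1.23 ± 0.20, adjusted p = 6.83e-05), and p65 from 45.5 and 11.2 to 96.2 and 125 (1.95 ± 0.47, adjusted p = 0.00366). Both calls were lost with TMM scaling (0.72 and 0.69), and that of p65 without KLA replicate 2 (1.75). PU.1 stayed between 202 and 225 in all 4 libraries at this promoter (0.02 ± 0.09) and rose 2.48 kb upstream, from 52.2 and 47.9 to 139 and 133 (1.43 ± 0.15, adjusted p = 1.36e-16). In the first intron, 3.10 kb past the downstream start site, ERK1 had 0 and 1.16 tags per 10 M with Veh and 29.5 and 24.5 with KLA. That is 1 tag against 42, a ratio of 40.7 with a 95% counting interval of 6.92 to 1646, and the call was lost without either KLA library.

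Slc2a1 encodes GLUT1, the main glucose transporter of activated macrophages. NCoR was called at 1 of 5 regions and HDAC3 at 1 of 4, both lower, p65 at 3 of 4, all higher (1 with TMM scaling), and p300 at 8 of 12, all higher (5 with TMM scaling). The intronic region 10.1 kb past the start fell from 59.7 and 119 to 23.5 and 24.9 tags per 10 M of NCoR (−1.88 ± 0.39, adjusted p = 0.00301). At the window shown above, 17.4 kb past the start, NCoR held 75.3 and 70.6 against 72.9 and 63.6 (−0.10 ± 0.27, adjusted p = 0.791), and p65 rose from 15.8 and 15.8 to 80.8 and 91.0 (2.44 ± 0.35, adjusted p = 0.000158). The p300 level 2.91 kb upstream rose from 32.6 and 17.1 to 173 and 156 (2.72 ± 0.25, adjusted p = 1.81e-07). ERK1 rose 16.9 kb past the start, from 4.72 and 5.78 to 45.5 and 42.2 (3.01 ± 0.66, adjusted p = 0.0166), a call lost without KLA replicate 1 (2.96) or 2 (3.06).

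The hexokinases phosphorylate glucose and differed in which regions moved. At Hk1, the broadly expressed isoform, NCoR rose at 2 of 4 and p300 at 4 of 8 regions (4 higher and 1 lower for p300 with TMM scaling). NCoR measured 2.39 and 2.35 tags per 10 M with Veh and 33.2 and 47.7 with KLA 16.5 kb past the start (4.03 ± 0.63, adjusted p = 0.000703), a call lost without KLA replicate 2 (3.74). At the same place p300 rose from 5.64 and 5.91 to 99.2 and 98.4 (4.08 ± 0.33, adjusted p = 3.52e-08), and PU.1 16.4 kb past the start from 32.6 and 24.9 to 101 and 83.5 (1.66 ± 0.19, adjusted p = 4.24e-14).

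Hk2, the inducible isoform, gained and lost in the same locus. NCoR was called higher at 2 and lower at 3 of 14 regions, p65 higher at 7 and lower at 1 of 13, and PU.1 lower at 4 of 13. With TMM scaling these became 2 and 3, 3 and 2, and 2. NCoR rose 2.61 kb upstream from 7.17 and 7.06 to 56.7 and 57.4 tags per 10 M (2.98 ± 0.45, adjusted p = 0.000613). Its region with the most tags, 49960 bp upstream, fell from 241 and 290 to 109 and 129 (−1.16 ± 0.20, adjusted p = 0.00131). Both changes left the groups without overlap, as is likely at called regions. HDAC3 rose 2.61 kb upstream from 8.73 and 13.3 to 58.6 and 133 (3.05 ± 0.46, adjusted p = 1.07e-09). PU.1 fell 6.76 kb upstream from 125 and 138 to 31.4 and 39.5 (−1.88 ± 0.16, adjusted p = 5.86e-21). Within the gene, 21.3 kb past the start, p65 rose from 10.5 and 9.32 to 106 and 128 (3.55 ± 0.36, adjusted p = 1.38e-05).

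Hk3 is expressed mostly in myeloid cells. At its promoter NCoR held 299 and 380 tags per 10 M with Veh and 254 and 215 with KLA, below the fold limit (−0.53 ± 0.19, adjusted p = 0.0408). PU.1 held 347 and 358 against 319 and 326 at the promoter (−0.13 ± 0.08, adjusted p = 0.16). The called region with the lowest p for these factors lay 4.1 kb downstream, in the first intron of a Hk3 transcript. It was the only called Hk3 region for NCoR, PU.1 and p300, while p65 and PGC1b were called higher at 3 regions each (0 and 2 with TMM scaling), including a region 1510 bp upstream for p65 (1.49 ± 0.25) and 1497 bp upstream for PGC1b (1.43). NCoR rose there from 33.5 and 27.1 to 123 and 92.0 (1.82 ± 0.31, adjusted p = 0.00118), and PU.1 from 76.5 and 99.0 to 209 and 229 (1.33 ± 0.11, adjusted p = 1.54e-21). At the same intron p65 rose from 34.1 and 34.5 to 162 and 158 (2.22 ± 0.26, adjusted p = 3.65e-05), which did not pass the fold limit with TMM scaling (1.00). PGC1b rose from 8.23 and 13.9 to 56.8 and 46.3 (2.18 ± 0.42, adjusted p = 0.00097). All 4 proteins were higher in both KLA libraries than in either Veh library, as is likely at called regions.

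Pfkfb3 was next to Hif1a in the number of gained regions. NCoR rose at 6 of 13, p65 at 10 of 15 and p300 at 19 of 26 regions, with none lower. Over all regions of these factors 23.4, 57.0 and 42.1% were called higher. TMM scaling gave 6 higher for NCoR, 6 higher and 3 lower for p65, and 18 higher and 1 lower for p300. In the intron 22.8 kb upstream of the main start site p65 had 0 tags in both Veh libraries and 151 and 142 tags per 10 M with KLA, at least 108-fold higher. There p300 had 0.627 and 0.657 against 248 and 265, a ratio of 400 (95% counting interval 110 to 3306). NCoR measured 4.78 and 5.88 against 83.4 and 69.9 (3.81 ± 0.45, adjusted p = 0.000175) and HDAC3 3.64 and 6.08 against 58.6 and 163 (4.40 ± 0.51, adjusted p = 3.13e-16). This window is the Pfkfb3 sequence above without a match to the searched motifs.

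At the neighbouring window 22010 bp upstream, which held the NF-kB motif, p65 rose from 24.5 and 28.9 to 230 and 260 tags per 10 M (3.20 ± 0.25, adjusted p = 2.95e-06). PU.1 rose there from 37.2 and 41.7 to 143 and 156 (1.93 ± 0.15, adjusted p = 7.85e-24). Fosl2 rose from 0 and 4.19 to 86.1 and 123, a call lost without either Veh library. In the intron between both start sites, 23.7 kb past the upstream one, p300 rose from 68.9 and 40.1 to 385 and 390 (2.82 ± 0.20, adjusted p = 7.19e-09). PGC1b rose there from 15.9 and 12.1 to 83.0 and 52.6 (2.26 ± 0.39, adjusted p = 0.000401) and, with DMSO, from 26.8 and 13.1 to 148 and 153 (2.84 ± 0.41, adjusted p = 2.47e-05).

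**Figure D3:**
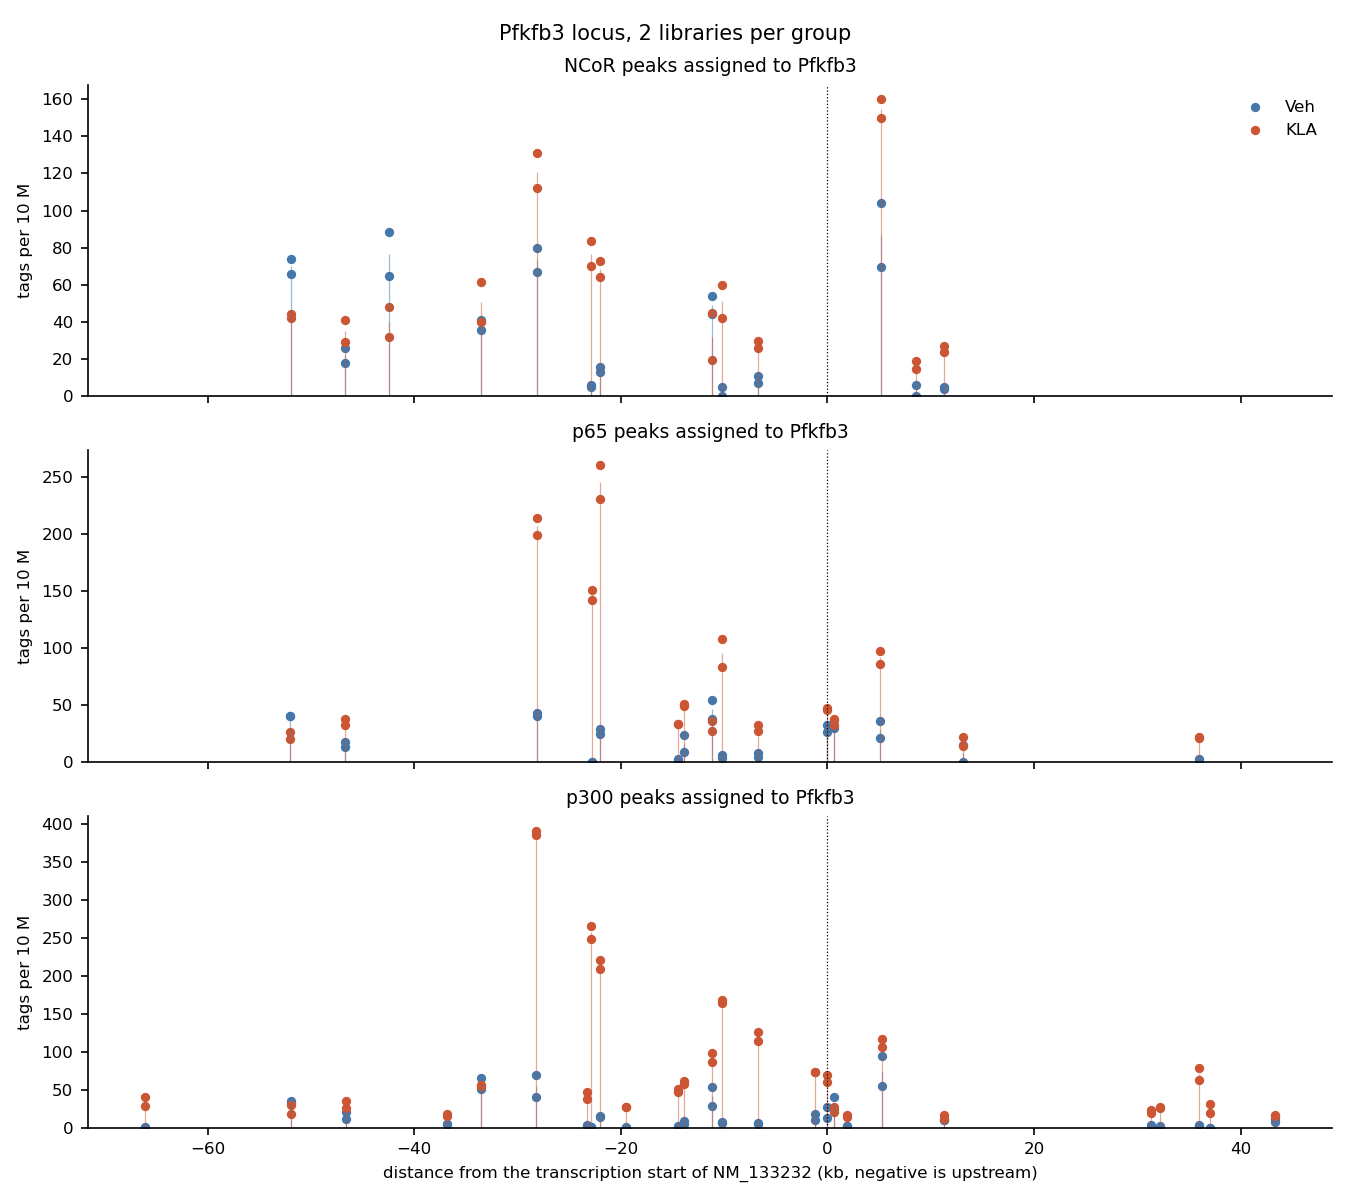
NCoR, p65 and p300 tags per 10 M at the regions assigned to Pfkfb3, against distance in kb from the main start site. Veh libraries are blue and KLA libraries red, with both libraries as points and a line to their mean. At 22.8 kb upstream the p65 Veh libraries are at 0 and the KLA libraries at 151 and 142.

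Pfkp had regions called higher near and within the gene, and regions called lower at the promoter and far upstream. The region 4.0 kb upstream rose for NCoR from 13.1 and 35.3 to 106 and 112 tags per 10 M (2.16 ± 0.39, adjusted p = 0.00152). It rose for p65 from 2.63 and 8.39 to 123 and 111 (4.40 ± 0.45, adjusted p = 1.45e-05) and for PU.1 from 21.2 and 16.8 to 90.3 and 93.7 (2.26 ± 0.21, adjusted p = 2.27e-19). PU.1 fell 241 kb upstream from 178 and 188 to 78.5 and 86.7 (−1.14 ± 0.12, adjusted p = 4.27e-16), a call lost with TMM scaling (−0.73). It also fell at the promoter, 516 bp upstream, from 69.3 and 47.9 to 27.5 and 24.2 (−1.19 ± 0.22, adjusted p = 6.17e-07), lost with TMM scaling (−0.78) and without Veh replicate 1 (−0.89). NCoR fell 257 kb upstream from 25.1 and 25.9 to 7.29 and 0.692 (−2.71 ± 0.72, adjusted p = 0.0109), lost without KLA replicate 2 (−1.79). Over the locus NCoR was called higher at 3 and lower at 1 of 14 regions, and p65 higher at 7 and lower at 1 of 11, the latter 1 and 3 with TMM scaling.

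Aldoa, Pkm and Ldha had few regions in each table. For p65 each had 1 region called higher, of 2, 4 and 2, and with TMM scaling 0, 0 and 0 higher and 0, 2 and 1 lower. For p300 the calls were 0 of 4 at Aldoa, 4 higher of 8 at Pkm (1 with TMM scaling), and 2 higher and 3 lower of 8 at Ldha (1 and 3 with TMM scaling). Aldoa, which splits fructose 1,6-bisphosphate, had 0 called NCoR regions of 4, and its promoter held 88.4 and 77.7 tags per 10 M of NCoR with Veh and 42.9 and 53.3 with KLA (−0.78 ± 0.29, adjusted p = 0.0467, under the fold limit). Pkm, whose product makes pyruvate, lost NCoR at 4 of 9 regions and gained it at 1, with TMM scaling too. Its promoter fell from 86.0 and 88.3 to 43.7 and 42.2 tags per 10 M of NCoR (−1.02 ± 0.28, adjusted p = 0.0135), a call lost with DESeq2 (−0.99) and without KLA replicate 1 (−1.04) or 2 (−0.99). The region 2.81 kb upstream of Pkm fell from 84.8 and 122 to 35.6 and 41.5 (−1.42 ± 0.30, adjusted p = 0.00367), lost without KLA replicate 1 (−1.32). PU.1 at the Pkm promoter fell from 116 and 123 to 44.5 and 67.6 (−1.09 ± 0.15, adjusted p = 1.58e-10), lost with TMM scaling (−0.67) and without KLA replicate 1 (−0.82).

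Ldha had no called NCoR region among 5. Its promoter, the sequence with 7 core motifs above, held 39.4 and 44.7 tags per 10 M of NCoR with Veh and 34.8 and 42.9 with KLA (−0.11 ± 0.35, adjusted p = 0.816), and p300 rose there from 37.0 and 29.6 to 92.6 and 88.1 (1.44 ± 0.25, adjusted p = 0.000107), lost with TMM scaling (0.92). Upstream, p300 fell 6.75 kb away from 54.5 and 43.4 to 16.4 and 8.11 (−1.99 ± 0.39, adjusted p = 0.000391) and PU.1 7.56 kb away from 87.4 and 99.6 to 19.0 and 21.7 (−2.19 ± 0.21, adjusted p = 9.85e-19). Fosl2 fell 7.38 kb away from 39.5 and 27.3 to 0 and 4.68 tags per 10 M. The Fosl2 call was lost without either Veh library, and it is the only lower Fosl2 call at the 10 genes.

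Most NCoR regions of the 10 genes carried other factors within 500 bp. Of the 100 regions, 89 had an HDAC3 region, 88 a p300 region, 77 a p65 region, 56 a PU.1 region, 52 a Fosl2 region, 51 a PGC1b region and 40 an ERK1 region. The shares over all NCoR regions were 80.4% for HDAC3, 81.3% for p300, 73.4% for p65, 63.3% for PU.1, 52.1% for Fosl2, 53.1% for PGC1b and 44.5% for ERK1. All 7 factors met at 19 regions, and none at 2. Of the 30 regions that gained NCoR, 29 had p300, 27 p65 and 6 PU.1, whereas 8 of the 9 that lost it had PU.1 and 3 had p65. Over all NCoR regions 33.1% of the gained and 80.5% of the lost ones had PU.1, and 81.4 and 57.6% had p65. The same contrasts were thus present there. For p300 these shares were 81.1 and 78.7%, and 7 of the 9 member regions that lost NCoR had it. Neighbouring regions of a gene are not independent, and no test was made of these shares.

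The effect of ERK inhibition was asked next. In the NCoR table with ERKi, which uses the Veh and KLA libraries described above, 56 of 106 regions were called with ERKi_KLA against KLA, 2 higher and 54 lower. Over all its NCoR regions 49.2% were called, 0.634% higher and 48.6% lower, with a median of −1.20 against −1.21 for the members. TMM scaling brought the median over all regions to −0.04 and the member calls to 6 higher and 3 lower, and the main count was 22 and 27 without KLA replicate 1 and 2. No NCoR group is labelled DMSO. The solvent, the other date of the ERKi libraries and their lower share of tags in regions cannot be told apart from the inhibitor. The Hif1a region 4.6 kb upstream, chosen after its values were seen, held 273 and 291 tags per 10 M with KLA and 93.8 and 52.6 with ERKi_KLA (−1.94 ± 0.28, adjusted p = 0.000216), and 25.1 and 12.9 with Veh. That call was lost with TMM scaling (−0.78). The Hif1a region 11.6 kb upstream fell from 135 and 131 to 23.7 and 25 (−2.45 ± 0.29, adjusted p = 9.26e-05) under each alternative. In the opposite direction, the Hk2 intron region 21.2 kb past the start rose from 104 and 113 to 249 and 218 (1.10 ± 0.20, adjusted p = 0.000865), also under each alternative. At the Hk3 promoter NCoR fell from 254 and 215 to 87.9 and 81.0 (−1.47 ± 0.20, adjusted p = 0.000177), lost with TMM scaling (−0.30). The Pfkfb3 region 22.8 kb upstream, also chosen after its values were seen, fell from 83.4 and 69.9 to 9.30 and 15.5 (−2.62 ± 0.45, adjusted p = 0.000569), lost with TMM scaling (−1.45).

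For PGC1b, no region of 92 was called with ERKi_KLA against DMSO_KLA by edgeR's quasi-likelihood test, against 0.286% of all PGC1b regions. At an unadjusted p under 0.05 there were 16, and DESeq2 called 1. This comparison uses the DMSO_KLA libraries of the PGC1b comparison above, a solvent control that the NCoR comparison lacked. The lowest p among the 92 regions belonged to the Hk2 intron 21.3 kb past the start, where PGC1b measured 19.7 and 28.3 tags per 10 M with DMSO_KLA and 100 and 106 with ERKi_KLA (2.08 ± 0.52, adjusted p = 0.0764). Next was the Pfkfb3 region 22.9 kb upstream, with 57.2 and 71.5 against 11.0 and 1.29 (−3.42 ± 0.86, adjusted p = 0.0785). Neither pair of groups overlapped, but this is likely at regions picked for a low p with 2 libraries per group. Nothing further is read from it. The Hif1a region 4.6 kb upstream held 182 and 113 against 48.5 and 75.0 (−1.24 ± 0.42, adjusted p = 0.176). These 3 regions were chosen after their values were seen.

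H3K27ac in the NCoR experiment addressed whether the mark at these genes depended on NCoR. In WT macrophages 8 of 42 tested regions (of 44) rose with KLA and none fell, against 10.2% called and 6.49% higher over all regions. That count was 5 with DESeq2, and 4 and 3 without WT Veh replicate 1 and 2. The WT gains were 3 at Slc2a1 and 1 each at Hk2, Hk3, Pfkfb3, Aldoa and Ldha, that of Hk2 lost with TMM scaling. At the Ldha promoter H3K27ac rose from 56.7 and 57.0 to 119 and 139 tags per 10 M (1.18 ± 0.20, adjusted p = 2.82e-05). At the Slc2a1 promoter it rose from 15.8 and 15.8 to 37.1 and 40.0 (1.28 ± 0.37, adjusted p = 0.0111), lost without either Veh library (1.28 and 1.29) or KLA replicate 2 (1.23). A Slc2a1 region 476 bp past the start rose from 18.3 and 19.4 to 48.4 and 62.7 (1.55 ± 0.34, adjusted p = 0.000857) under each alternative. The downstream Hif1a promoter had 17.7 and 25 against 17.0 and 27.6 and overlapped between the groups (0.05 ± 0.38, adjusted p = 0.957). The upstream Hif1a promoter had no region in this experiment.

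In NKO macrophages 1 of 42 regions was called with KLA, against 10.7% of all regions, and it was lower, as were 7.96% of all. This was the Hk2 region 49974 bp upstream, at 86.3 and 69.1 tags per 10 M with Veh and 37.7 and 21.5 with KLA (−1.36 ± 0.27, adjusted p = 0.000287). The median log2 fold change of KLA over the members was 0.45 in WT and 0.01 in NKO, against 0.13 and −0.20 over all regions. Between NKO and WT with Veh 0 of 42 regions were called by edgeR's quasi-likelihood test, against 1.00% of all, with 7 at an unadjusted p under 0.05 and 0 by DESeq2. Without NKO Veh replicate 2 the count was 1. Between NKO and WT with KLA 1 of 42 was called, against 0.789% of all, and it was lower, against 0.389%. This Pkm region 3.28 kb past the start held 67.3 and 75.1 in WT and 45.1 and 24.3 in NKO (−1.01 ± 0.27, adjusted p = 0.0494). It was lost with TMM scaling (−0.96), with DESeq2 (−0.97) and without WT KLA replicate 1 (−1.09), WT KLA replicate 2 (−0.93) or NKO KLA replicate 2 (−0.66).

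An interaction term compared the KLA response of NKO with that of WT macrophages and called 1 of 42 regions, against 0.697% of all, and lower, against 0.670%. It was the Hk3 promoter, where H3K27ac rose in WT from 31.5 and 43.3 to 88.7 and 114 tags per 10 M (1.43 ± 0.25, adjusted p = 2.89e-05) and measured 79.6 and 69.1 against 80.7 and 47.2 in NKO. The interaction was −1.62 ± 0.34 (adjusted p = 0.0105). It was lost with TMM scaling (−1.27) and without WT Veh replicate 1 (−1.42), WT Veh replicate 2 (−1.88), WT KLA replicate 2 (−1.43), NKO Veh replicate 1 (−1.52) or NKO KLA replicate 2 (−1.30). Both NKO Veh libraries lay above both WT Veh libraries, and the comparisons of this experiment share libraries. At the Ldha promoter NKO measured 75.9 and 72.5 with Veh and 74.3 and 97.9 with KLA, and the interaction was not called there.

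**Figure D4:**
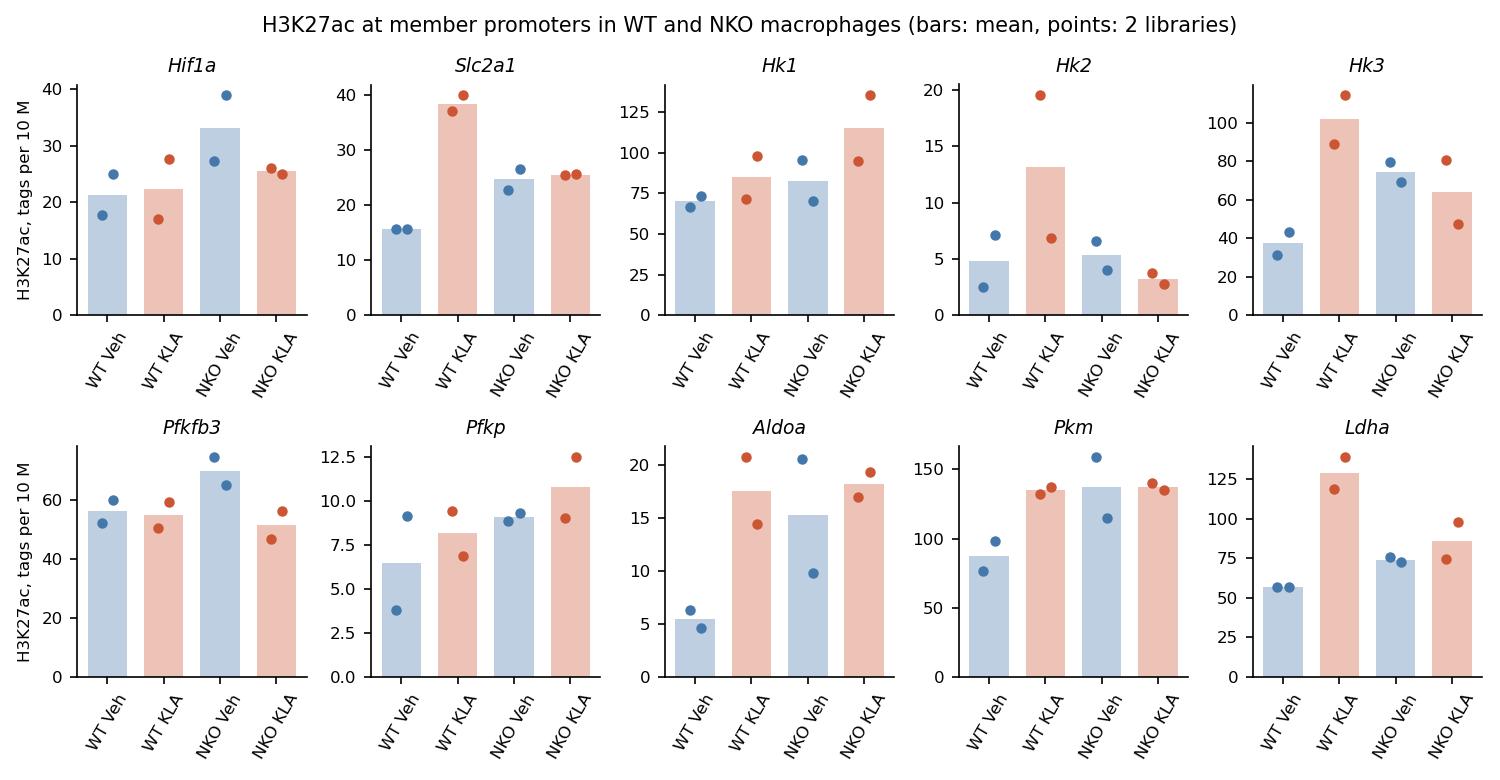
H3K27ac in tags per 10 M at the promoter region of each of the 10 genes, in WT and NKO macrophages with Veh or KLA. Bars are means and points the 2 libraries. At Hk3 the WT KLA libraries are at 88.7 and 114, above the WT Veh libraries at 31.5 and 43.3, and the NKO groups overlap.

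H3K27ac under HDAC3 inhibition was read from RGFP966_KLA against DMSO_KLA. No group held RGFP966 without KLA. An effect on the KLA response and an effect independent of KLA therefore cannot be told apart. In this table regions were 1000 bp wide, 43 of 46 were tested, and 4 overlapped a neighbour. With DMSO_KLA against DMSO_Veh 7 regions rose and 7 fell, 14 in all, against 34.8% of all regions, 6.73% higher and 28.1% lower. The median over all regions was −0.42, and with TMM scaling, which moved it to 0.00, the split was 15 higher and 3 lower. With RGFP966_KLA against DMSO_KLA 12 rose and 4 fell, 16 in all, against 36.5% of all, 26.9% higher and 9.53% lower. TMM scaling gave 9 and 6. The comparisons share the DMSO_KLA libraries.

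Regions of Slc2a1 and Pfkfb3 differed among themselves. The Slc2a1 promoter and 1 Pfkfb3 region near the main start site rose with KLA and were lower with RGFP966. The Slc2a1 promoter held 60.6 and 61.1 tags per 10 M with DMSO_Veh, 152 and 136 with DMSO_KLA and 58.6 and 65.7 with RGFP966_KLA. The changes were 1.25 ± 0.24 (adjusted p = 1.28e-06) and −1.22 ± 0.24 (adjusted p = 1.46e-06). The Pfkfb3 region 648 bp past the main start site held 54.0 and 56.7, then 214 and 182, then 76.4 and 79.3, with changes of 1.84 ± 0.24 (adjusted p = 2.74e-13) and −1.35 ± 0.23 (adjusted p = 2.92e-08). In both, the DMSO_KLA libraries stood above all the others. Other regions of these genes did not follow them. The Slc2a1 region 17365 bp past the start rose with KLA from 80.6 and 96.8 to 224 and 152 and held 265 and 249 with RGFP966_KLA (0.44 ± 0.20, not called), and the Slc2a1 region 18665 bp past the start was called higher with RGFP966 (1.03 ± 0.23), a call lost with TMM scaling (0.68). The Pfkfb3 region 9382 bp past the upstream start site fell with KLA from 18.3 and 20.1 to 9.07 and 9.26, a call lost with TMM scaling (−0.64), and rose to 27.6 and 24.4 with RGFP966 (1.5 ± 0.42). The Pfkfb3 region 23664 bp past the upstream start site rose with KLA (2.02 ± 0.27) and was not called with RGFP966 (−0.11 ± 0.23). At the downstream Hif1a promoter H3K27ac measured 177 and 164 with DMSO_Veh, 234 and 186 with DMSO_KLA and 105 and 88.7 with RGFP966_KLA (−1.12 ± 0.22, adjusted p = 1.49e-06), lost without DMSO_KLA replicate 1 (−0.94). At the Aldoa promoter RGFP966 lowered it from 401 and 342 to 198 and 169 (−1.02 ± 0.20, adjusted p = 1.76e-06), lost without DMSO_KLA replicate 1 (−0.90) or RGFP966_KLA replicate 2 (−0.91).

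Regions of other genes also went the opposite way or were not called with the inhibitor. The Pfkp region 241 kb upstream fell with KLA from 101 and 91.6 to 11.0 and 9.26 tags per 10 M (−3.23 ± 0.32, adjusted p = 3.82e-22) and stood at 86.9 and 66.4 with RGFP966_KLA (2.90 ± 0.32, adjusted p = 8.94e-17). Of 10 tested Pfkp regions KLA lowered 5, of which 2 lay within the gene, and RGFP966 raised 8 (with TMM scaling KLA raised 1 and lowered 3, neither of the regions within the gene being called lower, and RGFP966 raised 6). The Hk3 region 1.51 kb upstream rose with KLA from 143 and 113 to 514 and 453 (1.91 ± 0.21, adjusted p = 5.20e-19) and held 467 and 371 with RGFP966_KLA, where it was not called. The Hif1a region 122 kb upstream rose from 118 and 81.1 to 268 and 246 (1.37 ± 0.22, adjusted p = 2.72e-09) and held 205 and 165 with RGFP966_KLA, likewise not called. The Pkm region 2.79 kb upstream rose with RGFP966 from 57.6 and 85.8 to 188 and 177 (1.36 ± 0.23, adjusted p = 3.26e-08).

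**Figure D5:**
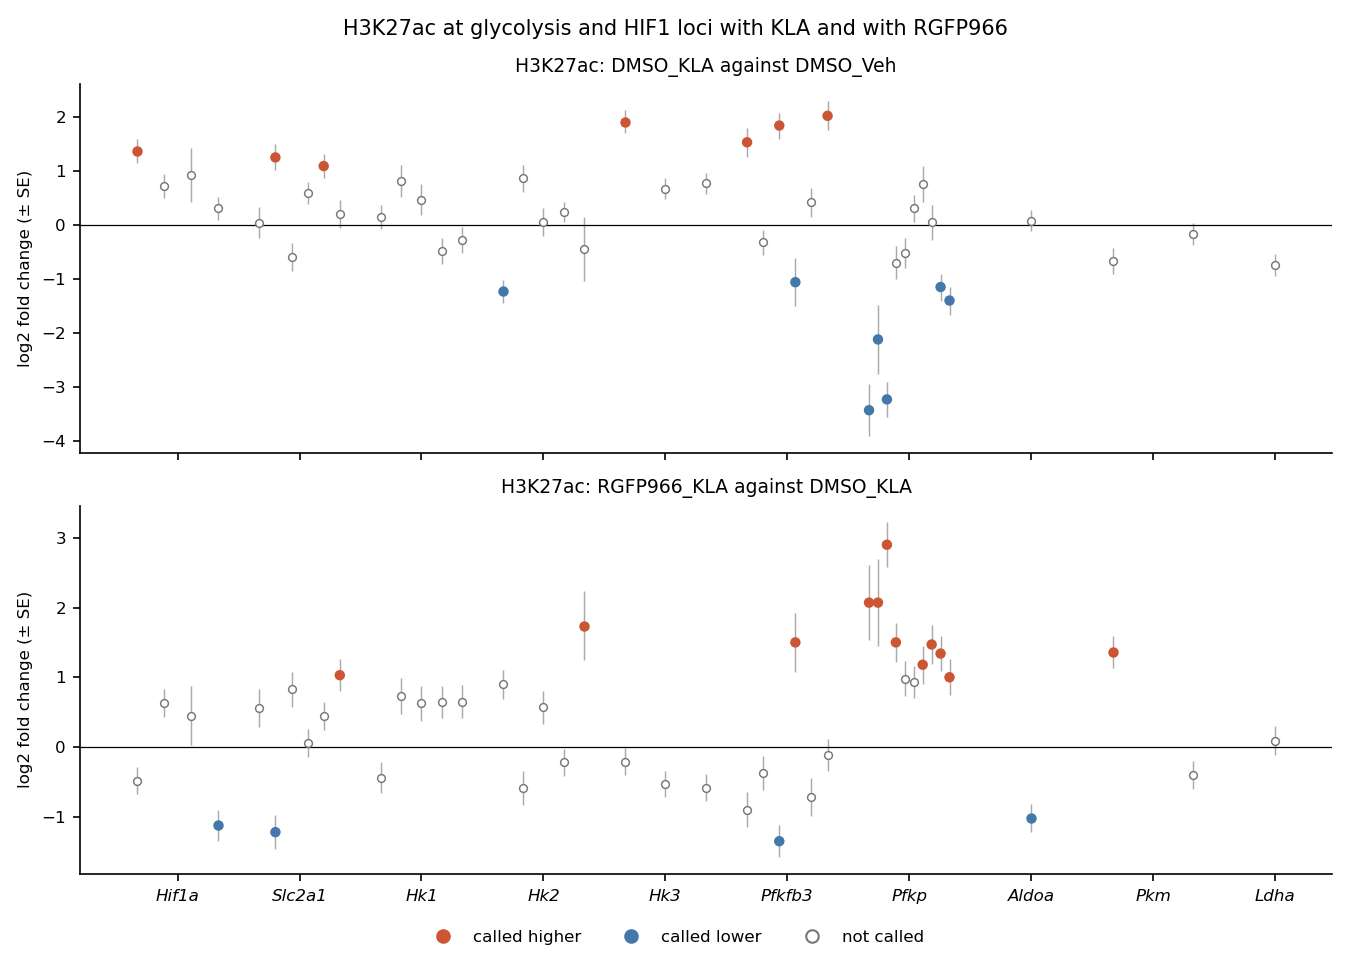
Log2 fold change of H3K27ac ± SE at the tested regions of the 10 genes, for DMSO_KLA against DMSO_Veh (top) and for RGFP966_KLA against DMSO_KLA (bottom). The Pfkp region 241 kb upstream is at −3.23 in the top panel and at 2.90 in the bottom panel. Both panels share the DMSO_KLA libraries.

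The PGC1b flox/flox experiment used regions of the same width, 43 of 46 tested. In macrophages without Cre, KLA raised 1 and lowered 5 regions, 6 in all, against 30.8% of all regions, 5.22% higher and 25.6% lower. With TMM scaling, which moved the median over all regions from −0.45 to −0.02, the counts were 6 and 4. With LysMCre, KLA raised 2 and lowered 10, 12 in all, against 36.7% of all, 4.18% higher and 32.5% lower, and TMM scaling gave 9 and 3, the median moving from −0.62 to −0.01. The Hk3 region 1.51 kb upstream rose in both genotypes. It went from 164 and 182 to 536 and 540 without Cre (1.64 ± 0.10, adjusted p = 1.14e-59) and from 137 and 158 to 376 and 322 with Cre (1.24 ± 0.10, adjusted p = 6.57e-31). The Pfkp region 241 kb upstream fell without Cre from 64.5 and 70.7 to 7.35 and 14.9 (−2.60 ± 0.31, adjusted p = 9.21e-16), and the Pfkp region 24.4 kb past the start fell with Cre from 216 and 196 to 60.0 and 67.1 (−1.69 ± 0.16, adjusted p = 9.38e-26). No difference between the genotypes is read from these regions, because the interaction of genotype and KLA called no Pfkp region.

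Between the PGC1b genotypes with Veh 0 of 43 regions were called by edgeR's quasi-likelihood test, against 0.397% of all, with 11 at an unadjusted p under 0.05 and 0 by DESeq2. With KLA 1 was called, against 7.52% of all, and it was lower, against 6.81%. The count was 3 and 2 without Cre KLA replicate 1 and 2. It was the intergenic Ldha region 12.4 kb upstream, at 217 and 208 tags per 10 M without Cre and 79.5 and 74.2 with Cre (−1.47 ± 0.13, adjusted p = 5.29e-25). With Veh the region held 305 and 350 without Cre and 247 and 246 with Cre. The interaction called this region alone, against 5.37% called and 4.60% lower over all regions, at −1.06 ± 0.17 (adjusted p = 3.86e-08). The interaction was not called with TMM scaling (−0.88) or without flox Veh replicate 1 (−0.96). The number of interaction calls was 2 without flox Veh replicate 2 or flox KLA replicate 1, and 3 without Cre KLA replicate 1.

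In osteoclast culture p300 rose at 21 of 39 regions from day 0 to day 4 and fell at none, against 62.5% called and 62.2% higher over all p300 regions. The median was 1.59 over the members and 1.84 over all regions. The share of tags in regions was 3.08 and 3.16% at day 0 and 9.61 and 9.53% at day 4, and its part in the result was not tested. TMM scaling brought the median over all regions to 0.22 and the member calls to 1 higher and 2 lower, and the main count was 1 and 2 without Day4 replicate 1 and 2. The Hif1a region 122 kb upstream rose from 35.2 and 29.8 to 124 and 94.1 tags per 10 M (1.72 ± 0.38, adjusted p = 0.00243), lost without Day4 replicate 1 (1.52) and with TMM scaling (0.10). The Ldha region 12.3 kb upstream rose from 23.7 and 17.0 to 96.8 and 76.0 (2.03 ± 0.43, adjusted p = 0.00208), lost without Day4 replicate 1 (1.86) and with TMM scaling (0.41). At the Pfkp intron 29.9 kb past the start 2 tags at day 0 stood against 60 at day 4, a ratio of 25.3 (95% counting interval 6.71 to 214), with 1.76 and 0 against 39.1 and 22.7 tags per 10 M. ERK1 was called at 0 of 27 regions by edgeR's quasi-likelihood test, against 2.35% of all, with 11 at an unadjusted p under 0.05, 0 by DESeq2, and 1 and 3 without Day0 replicate 1 and 2.

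Other genes of the pathway were read from a list of 22 further glycolytic genes and a list of 18 further HIF pathway genes. NCoR rose at 4 and fell at 7 of 42 regions of the glycolytic list (26.2% called), and rose at 9 and fell at 15 of 67 of the HIF list (35.8%), against 40.1% of all NCoR regions. For p65 the numbers were 21 higher and 3 lower of 43 (55.8%), and 28 higher and 6 lower of 62 (54.8%), against 62.4% of all. PU.1 rose at 1 and fell at 11 of 54 (22.2%), and rose at 0 and fell at 32 of 77 (41.6%), against 26.3% of all, 4.53% higher and 21.7% lower. H3K27ac in WT macrophages rose at 6 of 25 regions of the glycolytic list and at 0 of 24 of the HIF list, with none lower, against 10.2% called and 6.49% higher over all regions. These counts are in the main scaling, no test of the lists was made, and nothing particular to them is read from the counts. Pdk1, a kinase that holds pyruvate back from the mitochondria, had a region 5.57 kb upstream that fell for NCoR from 93.2 and 139 to 9.72 and 20.1 tags per 10 M (−2.93 ± 0.39, adjusted p = 3.33e-04). At Slc2a6, a glucose transporter family gene, p65 rose 2.29 kb past the start from 49.9 and 54.1 to 379 and 406 (2.91 ± 0.21, adjusted p = 1.76e-06).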

How the data were processed

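The authors aligned reads to mm10 (Bowtie2 and HOMER are named in the submitters' processing notes, without versions), kept reproducible peaks by IDR, merged the peaks of the compared conditions and deposited raw tag counts per region in 15 tables, counting at most 3 tags per position. In the RGFP966 and PGC1b H3K27ac tables the regions were 1000-bp windows, which need not be peaks of H3K27ac. The 74 count columns come from 70 libraries, 2 per group. The 30 input samples were not analysed here. Library totals were read from the file headers (4.30 to 21.5 M tags), and precision is limited by this depth and by 2 libraries.

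From these counts each of 25 comparisons was fitted over all regions of a table with edgeR 4.0.16 (glmQLFit and glmQLFTest, R 4.3.3), with the header totals as offsets and no further scaling. Regions needed at least 4 tags (H3K27ac 16) in at least 1 library. Benjamini-Hochberg adjustment ran over all tested regions, and a call needed an adjusted p under 0.05 and over 2-fold. A fold against a group with 0 tags was set against a floor of 3 tags over the group, and a ratio on 1 to 3 tags was given with an exact 95% interval, both covering counting error only. The fit was tested on simulated data. Alternatives were TMM scaling, DESeq2 1.42.0, a replicate block, no filter and leaving out each library. The text names, within a gene and table, the promoter region (nearest a start site, within 1000 bp), the region with most tags, and the called region with the lowest p in each direction; regions said to be chosen after their values were seen are exceptions, as are those of the tag floors and the values set beside another factor's region. Regions named for the lowest p were picked by their values, so groups without overlap there are no further support. The members and lists were chosen with earlier results of these data known. Motifs and promoters used RefSeq tables of GRCm38.p6, whose coordinates are those of mm10. Figures were drawn with matplotlib 3.10.9.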

Additional observations from a re-analysis of the deposited data

Results flagged for a closer look

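At the Hk3 promoter the response of H3K27ac to KLA differed between NKO and WT macrophages by the interaction term of edgeR's quasi-likelihood test. WT libraries held 31.5 and 43.3 tags per 10 M with Veh and 88.7 and 114 with KLA, and NKO libraries held 79.6 and 69.1 with Veh and 80.7 and 47.2 with KLA. The difference was −1.62 on the log2 scale (SE 0.34, adjusted p = 0.0105). It was not called with TMM scaling (−1.27) or DESeq2 (−1.29).

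At the Ldha region 12.4 kb upstream the response of H3K27ac to KLA differed between PGC1b flox/flox macrophages with and without LysMCre by the same kind of term. Libraries without Cre held 305 and 350 tags per 10 M with Veh and 217 and 208 with KLA, and libraries with Cre held 247 and 246 with Veh and 79.5 and 74.2 with KLA. The difference was −1.06 (SE 0.17, adjusted p = 3.86e-08 by edgeR's quasi-likelihood test). With TMM scaling (−0.88), DESeq2 (−0.88) or without flox Veh replicate 1 (−0.96) it was under the fold limit or not called.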

How the results depend on the processing

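Counts of called regions of the 10 genes are given first, as changed by scaling. With TMM scaling and with DESeq2, the counts were 42 (p65, TMM), 20 and 19 (Fosl2), 3 and 3 (ERK1), 18 and 18 (PGC1b with DMSO_KLA), 9 and 15 (NCoR with ERKi), 3 and 2 (p300 at day 4), 10 and 10 (H3K27ac in PGC1b flox/flox with KLA), and 0 and 0 for NKO against WT with KLA, for the NKO interaction and for the PGC1b interaction. DESeq2 gave 5 for H3K27ac in WT with KLA and 1 for PGC1b with ERKi_KLA. The cause was not tested, but the scalings differ by construction in that TMM and DESeq2 centre the bulk of the regions.

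Beyond those in the report, TMM moved the median over all regions from 0.27 to −0.01 (HDAC3), 0.06 to −0.05 (PGC1b), 0.26 to 0.06 (ERK1), 0.45 to 0.01 (PGC1b with DMSO_KLA), −0.20 to 0.00 (PGC1b with ERKi_KLA), 1.00 to 0.04 (ERK1 at day 4), 0.13 to −0.01 (H3K27ac in WT with KLA), 0.30 to 0.00 (NKO against WT with Veh), −0.34 to 0.00 (NKO interaction), 0.39 to 0.04 (RGFP966), and −0.38 to 0.01 (PGC1b genotypes with KLA).

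Leaving out 1 library at a time gave 21 to 45 calls for NCoR, 16 to 47 for HDAC3, 34 to 65 for p65, 0 to 26 for Fosl2, 6 to 28 for PGC1b, 0 to 8 for ERK1 and 13 to 22 for PGC1b with DMSO_KLA. It gave 22 to 51 for NCoR with ERKi, 0 to 3 for ERK1 at day 4, 1 to 28 for p300 at day 4 and 3 to 7 for H3K27ac in WT with KLA. For NKO against WT with Veh, with KLA, and their interaction it gave 0 to 1 each, for the PGC1b genotypes with KLA 1 to 3, and for their interaction 0 to 3. The counts of PU.1, p300 with KLA, and H3K27ac with DMSO_KLA, RGFP966_KLA and KLA in NKO stayed within 1.5 times the main count under each library left out.

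Same-numbered libraries did not deviate together (31 correlations from −0.026 to 0.021), so the numbers do not pair the samples. With a replicate block the counts were 5 for Fosl2, 2 for ERK1 at day 4 and 13 for p300 at day 4, and the other counts stayed within 1.5 times. Of 173 named region values, the block left 158 on their side of the threshold and 15 no longer called, and no filter changed none. Directions turned at 4 regions. NCoR with ERKi at Pfkp 29.9 kb past the start was 0.14 with TMM and 0.15 with DESeq2, and at the Pkm promoter 0.03 with both. For p300 at day 4, Hk2 50 kb upstream was −0.34 with TMM and −0.24 with DESeq2, and Hk3 1.49 kb upstream was −0.03 with TMM.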
